A study of Bos taurus with 8 samples.

Results

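The transcripts described here are those of the RNF and TRIM genes, which encode large families of ubiquitin ligases, in bovine blastocysts cultured with or without a generator of peroxyl radicals. Probes were taken by name alone: those whose platform symbol was RNF followed by a number, with or without an A or B, or TRIM followed by a number. The rule found 185 probes for 126 genes among 43794 probes with 15227 symbols on the array. RNF accounted for 121 probes and 74 genes and TRIM for 64 probes and 52 genes. Of the RNF symbols 71 were current RefSeq symbols of assembly ARS-UCD2.0 and 3 were synonyms, namely RNF12 (now RLIM), RNF160 (LTN1) and RNF219 (OBI1). Of the TRIM symbols 51 were current and 1 was a synonym, TRIM49 (TRIM77).

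Ubiquitin is passed from an E1 activating enzyme to an E2 conjugating enzyme, and an E3 ligase then selects the protein that receives it. A RING finger is the domain through which most E3 ligases hold the loaded E2. RNF names stand for proteins with a RING finger and little else in common, whereas TRIM proteins carry a RING, 1 or more B-boxes and a coiled coil, followed by a variable end that often binds the target. In early embryos ligases of both families mark histones, silence retroelements and remove maternal or damaged proteins.

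Embryos from slaughterhouse ovaries were matured, fertilized and cultured in vitro, and pools of 10 blastocysts were collected 196 hours after fertilization. The AAPH group received 0.01 mM AAPH, which decomposes to peroxyl radicals, from day 3 to day 5 and again from day 5 to day 7, and the control group had the same synthetic oviduct fluid without it. Each treatment had 4 pools, whose RNA went through 2 rounds of linear amplification, and 8 two-colour arrays each compared AAPH RNA with control RNA, 4 with AAPH in Cy5 and 4 with AAPH in Cy3. The comparison asks which transcripts differ between exposed and unexposed blastocysts.

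The 8 arrays formed 4 swap pairs, each an array of either dye orientation averaged into 1 replicate. The pairing was derived from the correlation of the arrays and is not stated in the labels. Swap pairs 1 and 2 lay on slide 26, and pairs 3 and 4 on slides 78 and 79. On single arrays 15525 to 36330 probes exceeded background for AAPH RNA, and 13803 to 36079 for control RNA. Log2 ratios give AAPH relative to control as mean ± SD over the swap pairs (n = 4). Signals are log2 intensities after scaling between arrays and are compared only between pools for 1 probe. The labels do not state whether different pools were made in different fertilization runs, and the p-values reflect the spread among pools, which may be technical. In pools of whole embryos, fewer cells of a type and less RNA per cell cannot be told apart. The blastocyst markers KRT18, POU5F1 and NANOG were above background on all 8 arrays in both RNAs.

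Most members of both families were measurable in blastocysts. The filter required a signal above the negative controls on 4 or more of 8 arrays in the RNA of either treatment. It kept 96 RNF probes (79.3%) for 65 genes and 46 TRIM probes (71.9%) for 36 genes, against 76.0% of all probes with a symbol. Signal on every array in both RNAs was found for 49 RNF probes (40.5%) and 17 TRIM probes (26.6%), against 34.3% of probes with a symbol. The difference between the families in detection was not tested. Of the 142 kept probes 3 passed through AAPH RNA alone, for RNF144B, RNF183 and TRIM7, and 11 passed through control RNA alone. Over all 31325 kept probes these counts were 599 and 2711.

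Of the 126 genes 25 had no kept probe and so have no ratio here, beside 3024 of the 15227 symbols on the array. Several of the 25 are known from other tissues, although TRIM63 of muscle and RNF112 of brain were measured. RNF17, a Tudor protein of male germ cells, RNF148, RNF182 and RNF207, a heart ion channel partner, were among the 9 unmeasured RNF genes, beside RNF125, RNF144A, RNF165, RNF175 and RNF32. The 16 unmeasured TRIM genes included TRIM10 of erythroid cells, TRIM55 and TRIM72 of striated muscle, TRIM14 of antiviral signalling and TRIM67 of neurons. The others were TRIM17, TRIM29, TRIM31, TRIM42, TRIM45, TRIM47, TRIM50, TRIM59, TRIM62, TRIM65 and TRIM69. Of all 185 probes, 6 RNF and 8 TRIM probes were not above background on any array in either RNA.

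Most members had ratios near 0, with somewhat more positive than negative ones. With the brightest kept probe of each gene, the median log2 ratio was 0.02 over the RNF genes and 0.01 over the TRIM genes, beside 0.01 over all 12203 measured genes. In the 4 swap pairs the RNF median was 0.01, 0.05, 0.04 and 0.03, and the TRIM median lay between 0.00 and 0.05. Of the RNF genes 40 had a positive and 25 a negative ratio, and of the TRIM genes 22 and 14, so that 61.4% of the 101 were positive, beside 52.0% of all genes. The difference in this share was not tested. A ratio within 0.2 of 0 in either direction was found for 75.4% of RNF, 80.6% of TRIM and 78.7% of all genes. Past 0.5 lay 1 RNF gene, RNF128, and 4 TRIM genes, TRIM38, TRIM6, TRIM68 and TRIM63, where 2.38% of all genes went past it.

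No RNF or TRIM probe passed limma with Benjamini-Hochberg adjustment over all 31325 probes, and the same test called 0.0% of them. The lowest adjusted p was 0.144 for RNF and 0.173 for TRIM. Before adjustment, 14 of 96 RNF probes (14.6%) and 8 of 46 TRIM probes (17.4%) had a p under 0.05, against a background of 13.7%. Higher in AAPH were 10 of the RNF and 6 of the TRIM probes, against 5.73% of all probes, and lower were 4 and 2, against 7.93%. The 16 higher and 6 lower members are 11.3% and 4.23% of the 142 kept probes. With median centring in place of loess the RNF probes divided into 5 higher and 6 lower and the TRIM probes into 7 and 3, while all probes had 5.60% higher and 10.8% lower. By gene, 13 of 65 RNF genes (20.0%) and 7 of 36 TRIM genes (19.4%) were under 0.05 before adjustment, against 15.0% of all genes. Of these, 10 RNF and 5 TRIM genes were higher in AAPH, against 7.7% of all genes, and 3 and 2 were lower, against 7.34%. The share in either direction together lies close to the background by probe, while more members were higher and fewer were lower than among all probes. These differences were not tested, and no member is called changed in what follows.

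Agreement between the swap pairs was also near that of all probes. The same sign in all 4 pairs was seen for 28 of the 142 kept probes (19.7%), 17 positive and 11 negative, against 22.3% of all probes. The median SD over the pairs was 0.222 for RNF genes and 0.155 for TRIM genes, beside 0.182 for all genes. The pools of both treatments did not overlap in signal for 5 probes (3.52%), against 1.91% of all, and these were RNF128, RNF14, RNF123, TRIM68 and TRIM71. RNF123 was above background on only 4 arrays in either RNA.

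**Figure D1:**
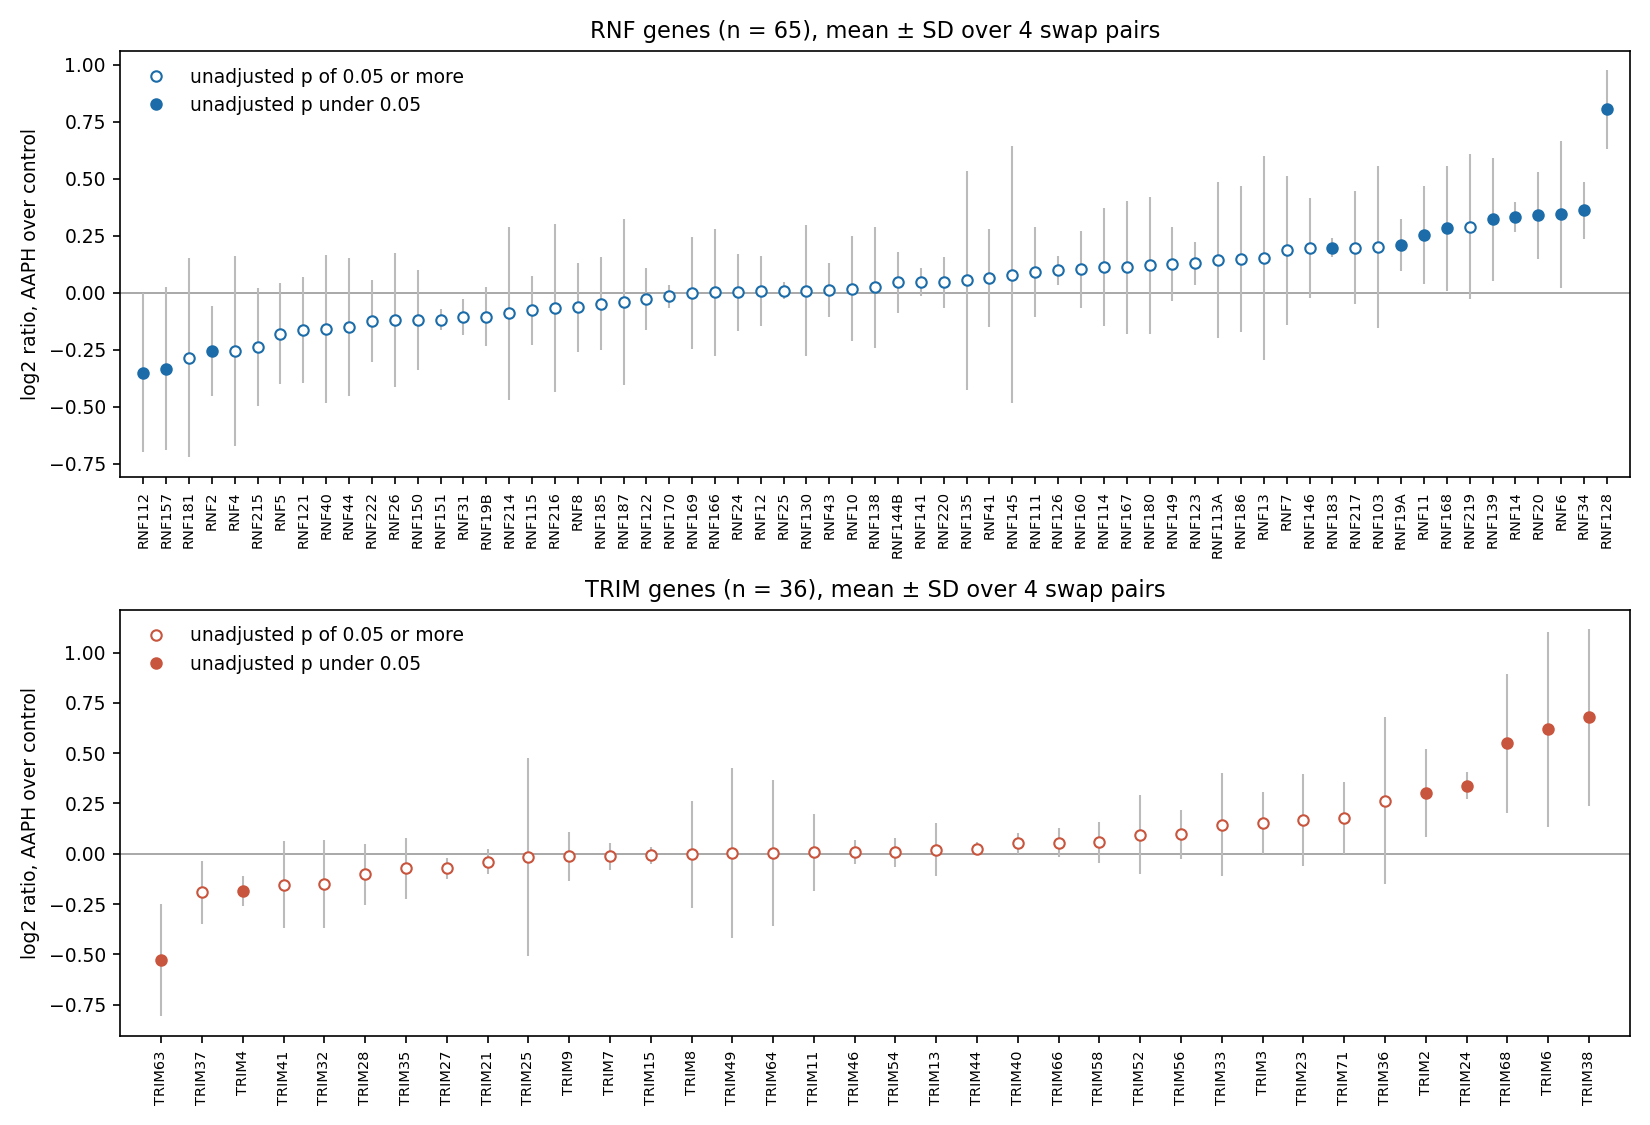
Log2 ratio of AAPH over control for the 65 measured RNF genes (top) and the 36 measured TRIM genes (bottom), each by its brightest kept probe, in order of the ratio. Points are means and bars the SD over 4 swap pairs, and filled points have an unadjusted limma p under 0.05. Most genes lie near 0, RNF128 stands at the upper end of the RNF genes at 0.80, and TRIM63 at the lower end of the TRIM genes at -0.53.

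RNF128 (also known as GRAIL), a transmembrane ligase of endosomes best known for restraining T cell activation, had the highest ratio of either family. Its brightest probe had control signals of 7.74, 7.55, 8.23 and 8.37 in swap pairs 1 to 4 and AAPH signals of 8.55, 8.54, 9.07 and 8.94. Every AAPH pool lay above every control pool. The ratios of 0.81, 0.99, 0.84 and 0.57 gave a mean of 0.80 ± 0.17, a fold of 1.74. It was above background on all 8 arrays in both RNAs, and its ratio was positive on each of the 8 arrays, at 0.96 on average with AAPH in Cy5 and 0.64 with AAPH in Cy3. In limma the unadjusted p was 5.47e-05 and the adjusted p 0.144.

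Within the families RNF128 was first of the 142 kept probes by ratio and by p, while its spread was ordinary, 67th when the probes are ordered by SD. Among all 31325 probes it was 9th by p and 101st by ratio. RNF128 had been singled out in earlier results of these data, so its place is a description. On slide 26 its ratio was 0.90 and on slides 78 and 79 it was 0.71. Over the 17 alternative settings its ratio stayed between 0.46 and 0.90 and its adjusted p between 0.00834 and 0.541.

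A second kept probe of RNF128 gave a smaller ratio. Its control signals were 6.98, 6.99, 6.92 and 7.20 and its AAPH signals 6.93, 7.06, 7.23 and 7.34, so that the groups overlapped. The mean was 0.11 ± 0.15 with a negative value in swap pair 1, and limma gave an unadjusted p of 0.190. It was above background on 6 arrays in control and 5 in AAPH RNA, and the remaining probe was above background on none. The value of 0.46 at the low end of the settings is the mean of both kept probes.

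**Figure D2:**
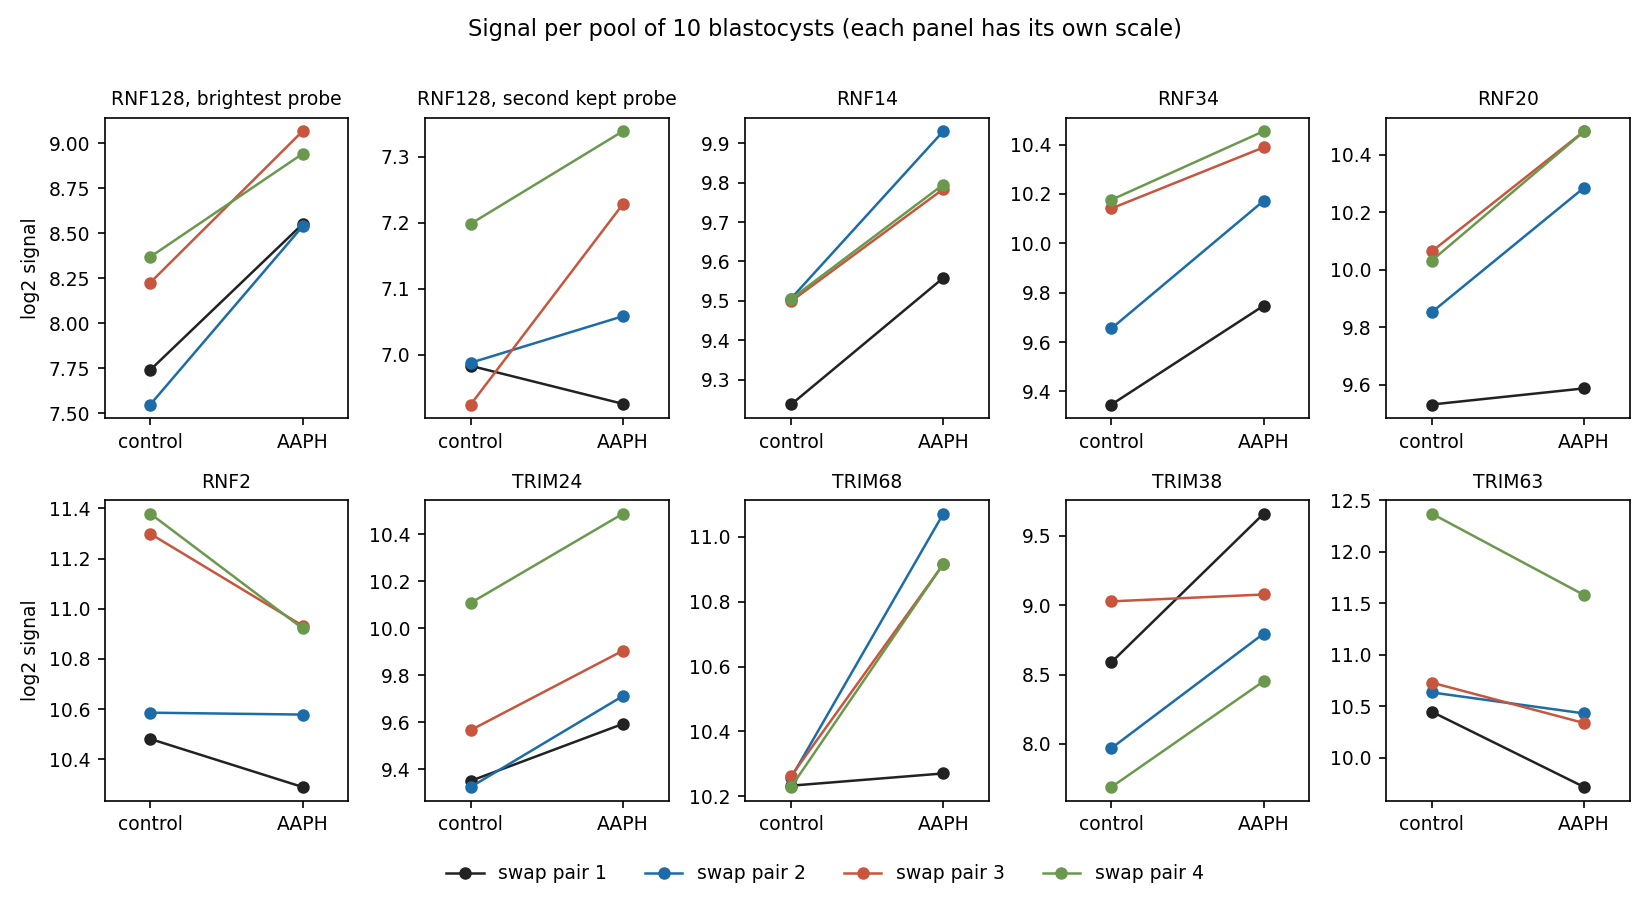
Log2 signal of 10 probes in control and AAPH pools, with a line joining the pools of each swap pair and a separate scale in each panel. The brightest RNF128 probe is higher in AAPH in all 4 pairs, from 7.55 to 8.37 in control and 8.54 to 9.07 in AAPH, while the second kept probe of RNF128 is lower in pair 1. TRIM68 is nearly level in pair 1 and TRIM38 in pair 3.

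The structural relatives of RNF128 carry the same protease-associated domain, a membrane span and a RING, and sit in endosomes, lysosomes or at the cell surface. Their ratios were 0.15 ± 0.45 for RNF13, 0.13 ± 0.16 for RNF149, 0.11 ± 0.29 for RNF167, 0.01 ± 0.29 for RNF130, 0.01 ± 0.12 for RNF43 and -0.12 ± 0.22 for RNF150. Each of these SDs is larger than its mean. RNF128 alone of the 7 measured (14.3%) had an unadjusted limma p under 0.05, against 15.0% of all genes. RNF43, which removes Frizzled receptors from the surface and so dampens Wnt signalling, was at 0.10 on slide 26 and -0.08 on slides 78 and 79. RNF13 owed its mean to swap pair 4, with 0.80 there and -0.04, -0.23 and 0.08 in pairs 1 to 3. The median of all 7, with RNF128 among them, was 0.11.

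RING-between-RING ligases take the ubiquitin onto themselves before handing it on. RNF14, which binds the androgen receptor and acts on translation factors at stalled ribosomes, had control signals of 9.24, 9.51, 9.50 and 9.50 and AAPH signals of 9.56, 9.93, 9.78 and 9.80. All 4 AAPH pools lay above all 4 control pools. The ratio was 0.33 ± 0.07, a fold of 1.26, with an unadjusted p of 0.00156 and an adjusted p of 0.173 in limma. A dimmer kept probe of RNF14, above background on 6 control and 5 AAPH arrays, gave -0.18, and the mean of both was 0.07.

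RNF19A, the ligase dorfin, was at 0.21 ± 0.11 with an unadjusted limma p of 0.0233, and its other kept probes had a median of 0.02. RNF31, the catalytic subunit of the complex that builds linear ubiquitin chains, was at -0.11 ± 0.08. RNF217, RNF144B, RNF216 and RNF19B ranged from -0.11 to 0.20. Over the 7 measured ligases of this class the median was 0.05, with 4 positive and 3 negative ratios.

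The ligases that modify histones or act at DNA breaks did not share a direction. RNF20, which with RNF40 places ubiquitin on histone H2B in transcribed genes, had control signals of 9.53, 9.85, 10.06 and 10.03 and AAPH signals of 9.59, 10.28, 10.48 and 10.48. It was higher in AAPH in each pair, by 0.42 to 0.45 in pairs 2 to 4 and by 0.06 in pair 1, and the groups overlapped. Its ratio was 0.34 ± 0.19 (limma, adjusted p = 0.234). Its partner RNF40 was at -0.16 ± 0.32.

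RNF2 (RING1B), the Polycomb ligase that marks histone H2A and is needed for early mouse development, had control signals of 10.48, 10.59, 11.30 and 11.38 and AAPH signals of 10.29, 10.58, 10.93 and 10.92. It was lower in AAPH in each pair, with -0.01 in pair 2, and the groups overlapped. The ratio was -0.26 ± 0.20 (limma, adjusted p = 0.313), at -0.42 with AAPH in Cy5 and -0.09 with AAPH in Cy3. On slide 26 RNF2 was at -0.10 and on slides 78 and 79 at -0.41.

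Of the pair that marks chromatin around DNA double-strand breaks, RNF168 was at 0.28 ± 0.27 and RNF8, which acts before it, at -0.06 ± 0.20. RNF168 had 0.55 with AAPH in Cy5 and 0.01 with AAPH in Cy3, and its second probe gave -0.05. RNF4, which targets proteins carrying SUMO chains, was at -0.25 ± 0.42, of which -0.85 came from swap pair 4. The 9 measured genes of this list had a median of 0.00 with 4 positive and 5 negative ratios. RNF20, RNF168 and RNF2 (33.3%) had an unadjusted limma p under 0.05, against 15.0% of all genes, a difference that was not tested.

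Among ligases of the endoplasmic reticulum membrane, RNF139 (TRC8), which acts in sterol-regulated and other protein degradation there, was at 0.32 ± 0.27 with an unadjusted limma p of 0.0249. Its pairs gave 0.11, 0.12, 0.39 and 0.68, all positive, with the values on slides 78 and 79 above those on slide 26. RNF5, which removes misfolded membrane proteins, was at -0.18 ± 0.22. The list of 8 divided into 4 positive and 4 negative ratios with a median of 0.03.

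Ligases of innate immune signalling lay near 0. RNF135 (Riplet), which activates the RNA sensor RIG-I, was at 0.05 ± 0.48, RNF114 at 0.11 ± 0.26, RNF216 at -0.07 ± 0.37 and RNF31 as given above. None of the 4 had an unadjusted p under 0.05. The single regulators of larger pathways were likewise without one: RNF146, which removes axin marked with poly-ADP-ribose, was at 0.20 ± 0.22, RNF7, the RING subunit of a cullin ligase, at 0.19 ± 0.32, and RNF12, which promotes X inactivation in mouse embryos, at 0.01 ± 0.15.

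The 29 measured RNF genes in no role list had a median of 0.01 with 17 positive and 12 negative ratios. RNF34, a ligase described as an inhibitor of cell death, had control signals of 9.35, 9.66, 10.14 and 10.18 and AAPH signals of 9.75, 10.17, 10.39 and 10.45. It was higher in AAPH in all 4 pairs, although the groups overlapped because pairs 3 and 4 had higher signals in both RNAs. The ratio was 0.36 ± 0.12 with an unadjusted p of 0.00213 and an adjusted p of 0.181 in limma. RNF34 was the RNF gene next in size to RNF128.

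Also under an unadjusted p of 0.05 in limma were RNF6 at 0.34 ± 0.32, RNF11 at 0.25 ± 0.21 and RNF183 at 0.20 ± 0.04 on the positive side, and RNF112 at -0.35 ± 0.35 and RNF157 at -0.33 ± 0.36 on the negative side. RNF6 is a regulator of the androgen receptor, RNF11 a small partner of NEDD4-type ligases and RNF112 a protein known from brain. RNF183 was above background on 3 control and 4 AAPH arrays and had 0.44 with AAPH in Cy5 and -0.05 with AAPH in Cy3. RNF112 likewise changed sign with the dye, from -0.75 to 0.05. RNF112 and RNF157 were at -0.60 and -0.56 on slides 78 and 79 but both at -0.10 on slide 26.

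RNF219 (OBI1), which ubiquitinates the origin recognition complex in DNA replication, had probes that opposed each other. The brightest gave -0.14, 0.25, 0.48 and 0.57 in the swap pairs, a mean of 0.29 ± 0.32. A dimmer one, above background on 5 control and 3 AAPH arrays and named after its values were seen, gave -0.33, -0.48, -0.47 and -0.45, a mean of -0.43 ± 0.07 with an unadjusted limma p of 0.000382. No direction can be given for the gene.

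**Figure D3:**
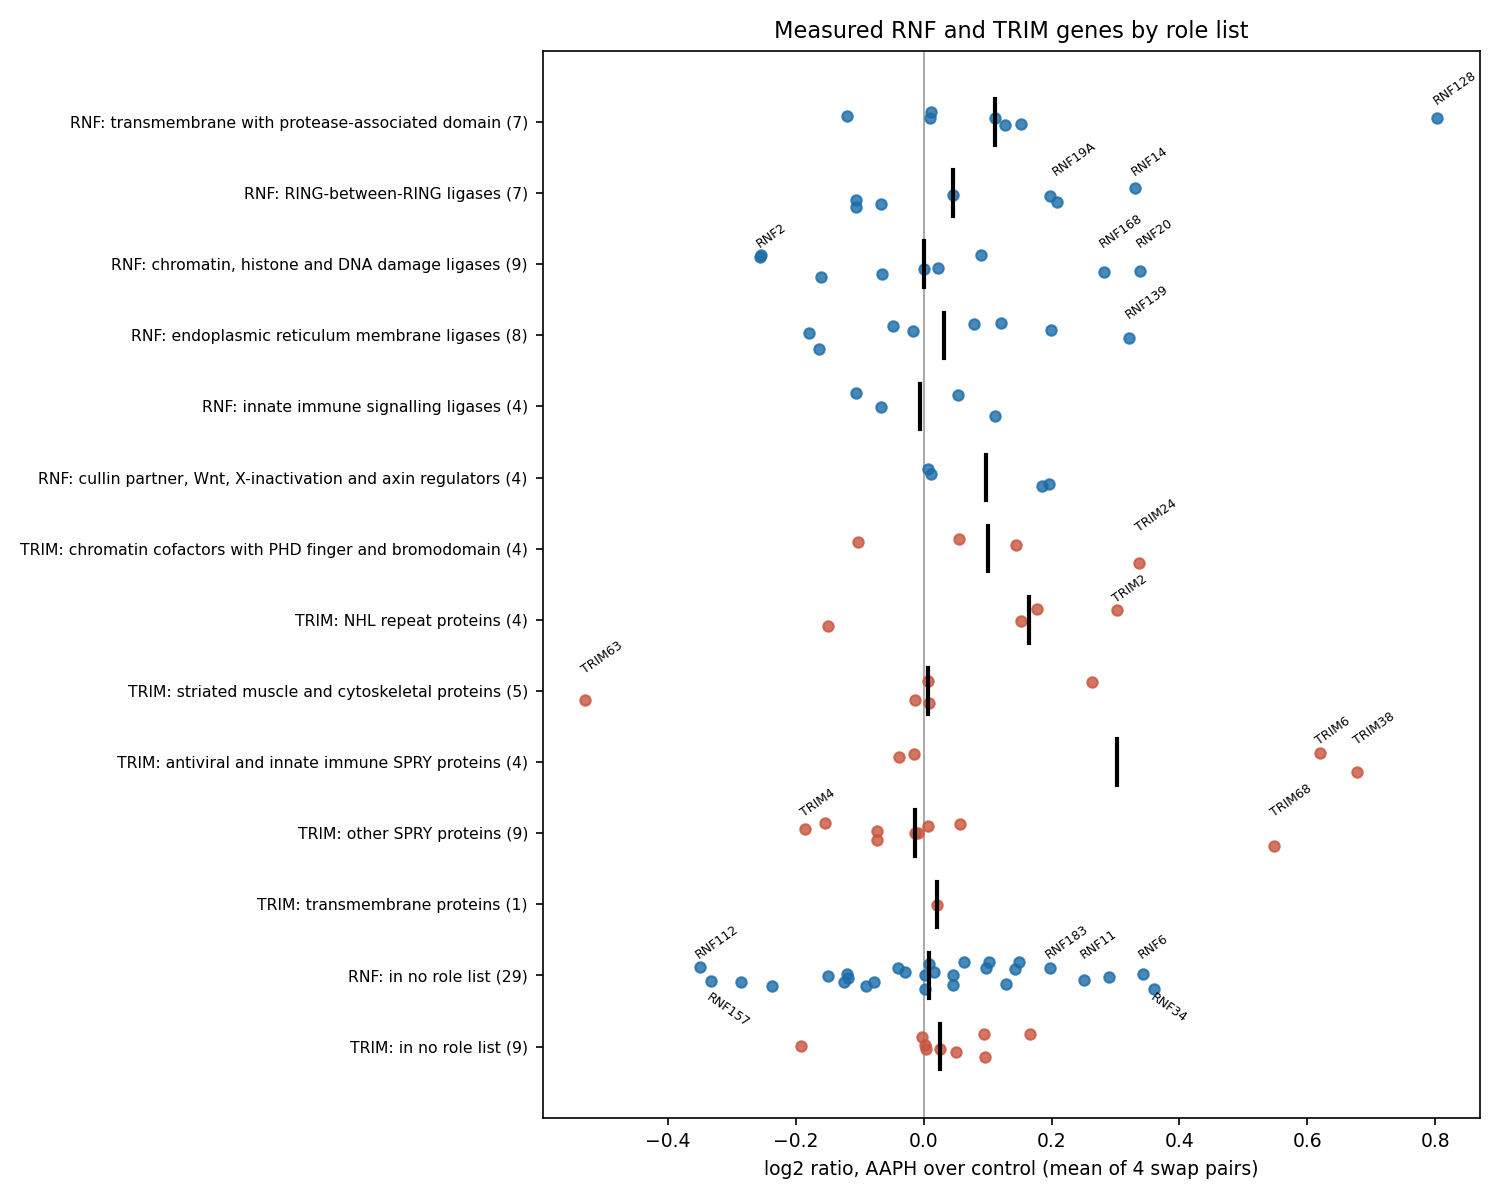
Log2 ratio of AAPH over control for each measured gene, by role list, with the number of measured genes in brackets. Points are single genes (means of 4 swap pairs), black bars are list medians, and genes with an unadjusted limma p under 0.05 are named. RNF31, RNF216 and RNF43 stand in 2 lists. Every list with more than 1 gene except the 4 cullin, Wnt, X-inactivation and axin regulators has genes on both sides of 0.

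TRIM proteins with a PHD finger and bromodomain are chromatin cofactors. TRIM24, a coregulator of nuclear receptors, had control signals of 9.35, 9.32, 9.57 and 10.11 and AAPH signals of 9.59, 9.71, 9.90 and 10.49. Each AAPH pool lay above its paired control, with overlap between the groups. The ratio was 0.34 ± 0.07, a fold of 1.26, with an unadjusted p of 0.00142 and an adjusted p of 0.173 in limma, the lowest of the TRIM genes. By dye, it was 0.54 with AAPH in Cy5 and 0.14 with AAPH in Cy3.

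The 2 other kept probes of TRIM24 gave -0.12 and -0.05, and the mean over its kept probes was 0.06. TRIM28 (KAP1), the corepressor through which KRAB zinc finger proteins silence retroelements and protect imprints, was at -0.10 ± 0.15. TRIM33, a regulator of SMAD4 and nodal signalling, was at 0.15 ± 0.26, with signals that ranged from 7.55 to 9.20 over the control pools. TRIM66 was at 0.06 ± 0.07.

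TRIM proteins with NHL repeats often bind RNA or cargo. TRIM2, best known from neurons, had control signals of 9.80, 10.09, 10.45 and 10.89 and AAPH signals of 10.07, 10.68, 10.51 and 11.18. It was higher in AAPH in each pair and the groups overlapped. Its ratio was 0.30 ± 0.22 (limma, adjusted p = 0.286), and its other kept probes gave 0.14 and 0.22.

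TRIM71 (LIN41), a target of the let-7 miRNA in embryonic stem cells, had control signals of 7.06, 7.04, 6.94 and 6.96 and AAPH signals of 7.09, 7.08, 7.16 and 7.37. The groups did not overlap, but the ratio was 0.86 with AAPH in Cy5 and -0.50 with AAPH in Cy3, and the probe was above background on 6 arrays in either RNA. Its mean was 0.18 ± 0.18. TRIM3 and TRIM32 were at 0.15 ± 0.15 and -0.15 ± 0.22.

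In the group of striated muscle and cytoskeletal proteins, TRIM63 (MuRF1), the ligase that breaks down sarcomere proteins in muscle atrophy, had the most negative ratio of either family. Its control signals were 10.45, 10.64, 10.73 and 12.37 and its AAPH signals 9.72, 10.43, 10.34 and 11.58. Each AAPH pool lay below its paired control, while pair 4 was high in both RNAs and the groups overlapped. The ratio of -0.53 ± 0.28 corresponds to a 1.44-fold lower signal in AAPH, with an unadjusted p of 0.00297 and an adjusted p of 0.189 in limma. It was -0.47 on slide 26 and -0.59 on slides 78 and 79. TRIM36, TRIM9, TRIM54 and TRIM46 ranged from -0.01 to 0.26, and none had an unadjusted p under 0.05.

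The antiviral TRIM proteins end in a SPRY domain, and those measured were 2 with high and 2 with near-zero ratios. TRIM38, which limits Toll-like receptor and interferon signalling, had control signals of 8.59, 7.97, 9.03 and 7.69 and AAPH signals of 9.66, 8.80, 9.08 and 8.45. AAPH was higher by 1.07, 0.83 and 0.76 in pairs 1, 2 and 4 and by 0.05 in pair 3, and the groups overlapped. The ratio was 0.68 ± 0.44 (limma, adjusted p = 0.221).

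TRIM6, which builds free ubiquitin chains in interferon signalling, had control signals of 9.21, 8.55, 10.05 and 8.88 and AAPH signals of 10.21, 9.44, 9.97 and 9.54. The pattern was as for TRIM38, with 1.00, 0.90 and 0.67 in pairs 1, 2 and 4 and -0.08 in pair 3, where the control signal was the highest of the 4 for either gene. The ratio was 0.62 ± 0.49 (limma, adjusted p = 0.259). Within slide 26 TRIM38 and TRIM6 were both at 0.95, and within slides 78 and 79 at 0.41 and 0.29.

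TRIM21, the cytosolic antibody receptor, was at -0.04 ± 0.06. TRIM25, which ubiquitinates RIG-I, was at -0.01 ± 0.49, with -0.33, 0.43, 0.38 and -0.54 in the swap pairs. Its control signals of 9.82, 8.10, 7.68 and 7.55 gave an SD of 1.05, the widest spread among control pools of the kept RNF and TRIM probes. The 4 genes had a median of 0.30, which rests on TRIM38 and TRIM6.

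Genes known to be stimulated by interferon had mostly positive ratios in the same pools. Of 20 measured, 19 were above 0, with an overall median of 0.32 and medians of 0.73, 0.37, 0.24 and 0.11 in swap pairs 1 to 4, and 13 had an unadjusted limma p under 0.05, all positive, where 7.7% of all genes were higher by that rule. Their mean signal ranged from 7.58 to 8.28 in control and 7.76 to 9.16 in AAPH pools. In pair 3 this list was at 0.24, TRIM38 at 0.05 and TRIM6 at -0.08, and a link between them was not tested. No probe sequence was used here, and whether the probes of related TRIM genes bind each other's transcripts was not tested.

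Among the other SPRY proteins TRIM68, a coactivator of the androgen receptor, had control signals of 10.23, 10.26, 10.26 and 10.23, an SD of 0.02, and AAPH signals of 10.27, 11.07, 10.92 and 10.92. All 4 AAPH pools lay above the control pools, that of pair 1 barely. It was 0.04 above its own control, and its arrays gave 0.12 and -0.04, while the others were 0.65 to 0.81 above theirs. The ratio was 0.55 ± 0.35, a fold of 1.46, with an unadjusted p of 0.00575 and an adjusted p of 0.226 in limma. A second probe of TRIM68, above background on 5 arrays in either RNA, gave -0.06, and the mean of both was 0.24.

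TRIM4 was at -0.19 ± 0.07 with an unadjusted limma p of 0.0249, above background on 5 control and 3 AAPH arrays. By dye, TRIM4 had -0.03 with AAPH in Cy5 and -0.34 with AAPH in Cy3. TRIM41 was at -0.15 ± 0.22 by its brightest probe and 0.17 by another. The 9 genes of this list had a median of -0.01, with 3 positive and 6 negative ratios. TRIM13, a ligase of the endoplasmic reticulum membrane, was at 0.02 ± 0.13. Of the 9 measured TRIM genes in no role list none had an unadjusted p under 0.05, and TRIM37, known from peroxisomes and centrosomes, had the lowest ratio of these, -0.19 ± 0.16.

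Where a gene had several kept probes, they often differed. Of 30 such genes, 23 RNF and 7 TRIM, the other probes had the sign of the brightest in 16 (53.3%) and at least 50% of its size in 9 (30.0%), against 56.8% and 33.5% of 2907 genes with several kept probes. Among the 7 whose brightest probe had an unadjusted p under 0.05, the sign was shared in 3, and TRIM2 was the single gene with at least 50% of the size. Over all 551 such genes these shares were 63.3% and 18.0%. Genes with 1 kept probe, such as RNF20, RNF34, TRIM38, TRIM6 and TRIM63, have no such comparison.

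**Figure D4:**
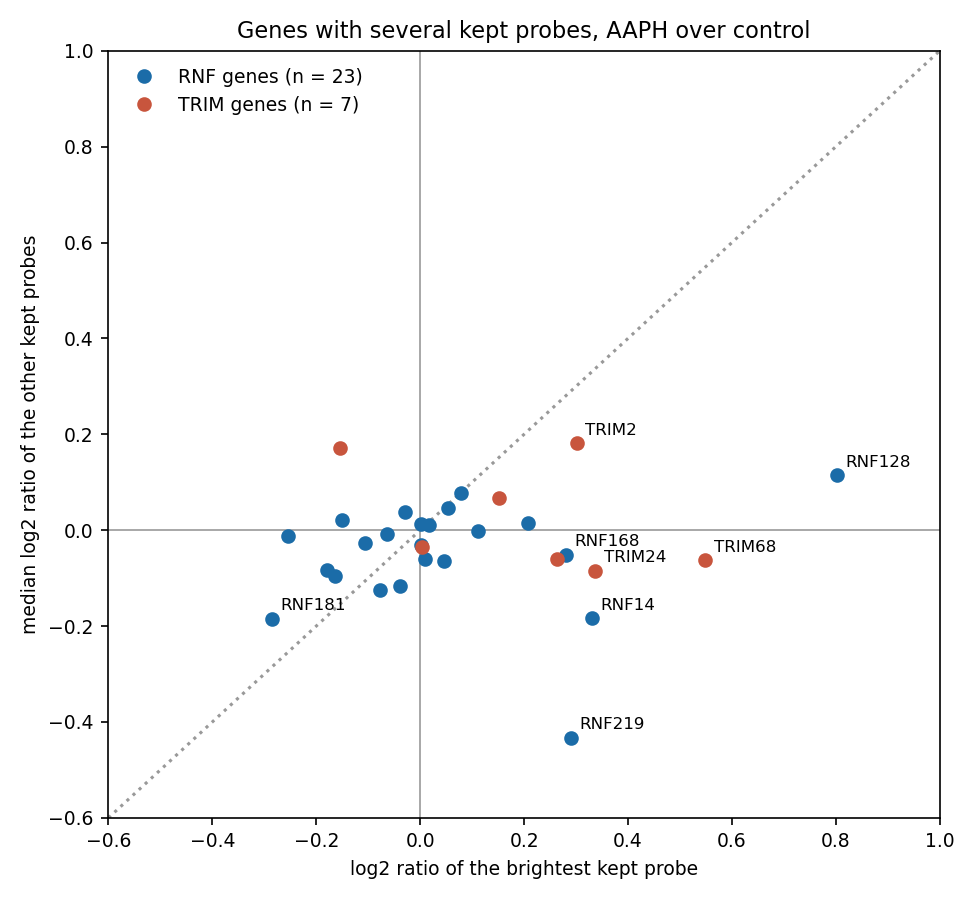
Log2 ratio of the brightest kept probe (horizontal) against the median of the other kept probes (vertical) for 23 RNF and 7 TRIM genes with several kept probes. The dotted line marks equal ratios. TRIM2 lies nearest to it among the genes named on the right, RNF128 lies at 0.80 and 0.11, and RNF219, RNF14, RNF168, TRIM24 and TRIM68 lie below 0 on the vertical axis.

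The other enzymes of the ubiquitin pathway were also without an adjusted call, and no ubiquitin gene of the 4 sought was on the array under its symbol. Of 7 E1 enzymes 5 were higher in AAPH, at a list median of 0.17. An unadjusted limma p under 0.05 was found for 3 of them (42.9%), against 15.0% of all genes, a difference that was not tested. UBA7 was at 0.59 ± 0.55, with 1.32, 0.65, 0.38 and 0.03 in swap pairs 1 to 4. NAE1, which activates NEDD8, was at 0.39 ± 0.28. Of 28 E2 enzymes 10 were positive and 18 negative with a median of -0.06. UBE2E2 was at 0.52 ± 0.20. UBE2N, which builds the lysine-63 chains used by many TRIM and RNF signalling ligases, was at -0.45 ± 0.26. In limma their unadjusted p-values were 0.00104 and 0.00528. An unadjusted limma p under 0.05 was found for 6 of the 28 (21.4%), against 15.0% of all genes. The pools did not overlap for UBE2E2 and UBE2N (7.14% of the list), against 1.91% of all genes. These differences were not tested. In swap pair 3 the arrays of UBE2E2 opposed each other, at 1.21 and -0.49.

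HECT ligases had 16 positive and 5 negative ratios with a median of 0.11, among them UBE3A at 0.26 ± 0.08, and the interferon-stimulated HERC6 at 0.65 ± 0.54. UBE3A was at 0.47 with AAPH in Cy5 and 0.04 with AAPH in Cy3. HERC6 was above background on 3 control and 6 AAPH arrays, so it passed the filter through AAPH RNA alone. In swap pair 4 it was at -0.05. Cullins and their partners had 6 positive and 3 negative ratios with a median of 0.08. The 35 RING ligases of other names had 24 and 11 with a median of 0.05, where TRAF6, a receptor signalling ligase, was at -0.30 ± 0.14. The 48 deubiquitinases, which remove ubiquitin, had 28 and 20 with a median of 0.07. RNF and TRIM medians of 0.02 and 0.01 lay below those of these 3 ligase classes, a difference that was not tested.

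Markers of fibroblasts and connective tissue had mostly positive ratios, and none passed adjustment. Of 13 measured fibroblast and connective tissue markers 9 were above 0 and 4 below, from -0.58 to 2.86, with VIM at 1.86 ± 0.62. The markers had a median of 0.48, and medians of 0.77, 0.63, 0.27 and 0.14 in swap pairs 1 to 4. By an unadjusted limma p under 0.05, 8 of them were higher and 1 lower, where 7.7% and 7.34% of all genes were. Their mean signal ranged from 7.87 to 8.71 in control and 8.14 to 9.46 in AAPH pools, and COL6A3 and FAP were not above the filter. RNF128 was at 0.81, 0.99, 0.84 and 0.57 in the same pairs. The part of these cells in the RNF and TRIM ratios was not tested.

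The leukocyte list had 7 measured members with a median of -0.01 and mean signals of 7.10 to 7.34 in control and 7.12 to 7.25 in AAPH pools. The part of leukocytes in the RNF128 ratio was not tested. CD4, CD14, ITGAM and TYROBP were not measured. Of 10 cumulus cell markers 9 were positive, from -0.09 to 1.10 with a median of 0.13. The medians of trophectoderm, inner cell mass and hypoblast markers were -0.06, 0.00 and 0.12 over 13, 9 and 9 genes. Of these, 2, 5 and 6 were positive and 11, 4 and 3 negative. By an unadjusted limma p under 0.05, 2 cumulus and 3 hypoblast markers were higher, where 7.7% of all genes were. By the same rule 1 trophectoderm marker was lower, where 7.34% of all genes were. These differences were not tested.

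**Figure D5:**
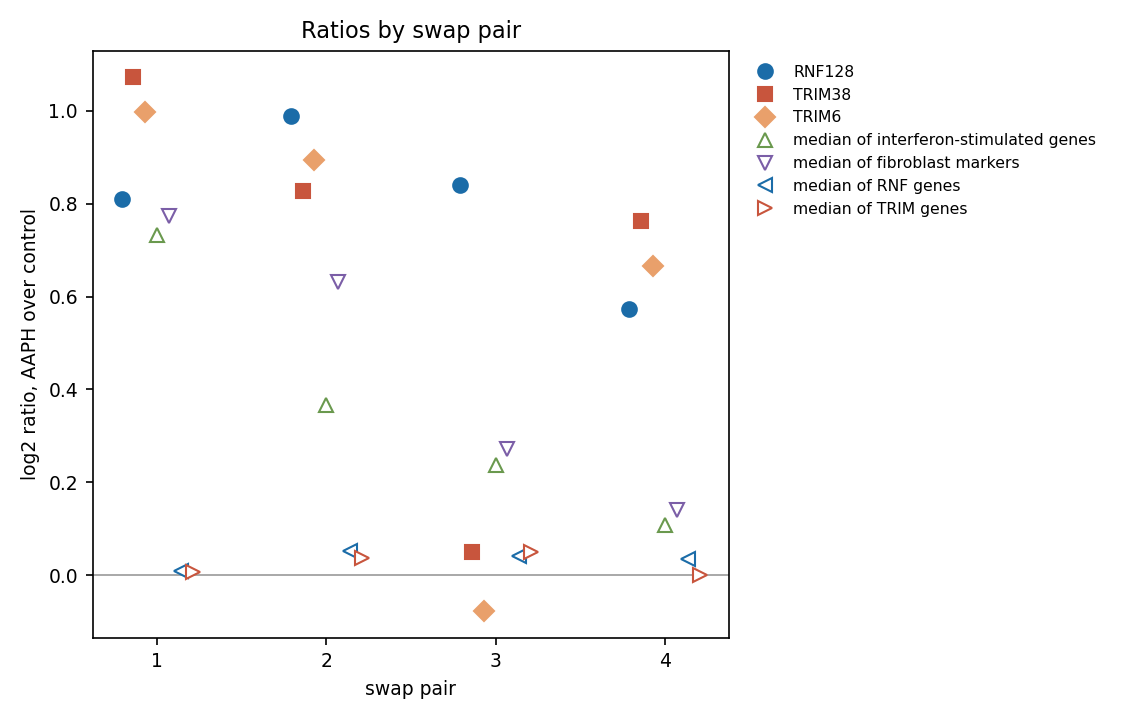
Log2 ratio of AAPH over control in each of the 4 swap pairs for RNF128, TRIM38 and TRIM6 (filled) and the medians of 4 gene lists (open). RNF128 lies between 0.57 and 0.99 in all pairs, TRIM38 and TRIM6 lie near 0 in pair 3, and the medians of RNF and TRIM genes lie within 0.06 of 0 in every pair.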

How the data were processed

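RNA of 4 AAPH and 4 control pools was measured on 8 two-colour arrays. The deposited scanner files hold foreground and background intensity per spot in both dyes, per the file headers. A deposited table of the authors' log2 ratios served as an alternative. Its columns correlated at 0.967 to 0.994 with the turned scanner log2 ratios, in the direction AAPH over control, and had slopes of 0.945 to 0.972 on them over probes above background on every array, as on a log2 scale, while its normalization stays unknown. Its column medians for arrays 1 to 8 were -0.0135, -0.00863, 0.0117, 0.00944, -0.0152, 0.00799, -0.0188 and -0.0197. The submitters' processing notes name limma without settings.

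The tools were R 4.3.3 and limma 3.58.1. Background correction was by normexp (offset 50) on the mean foreground and the median local background. Loess within arrays followed, with control spots at weight 0, and ratios were turned to AAPH over control. Signals per pool were taken after Aquantile scaling. A probe was above background past the median of the negative controls by 3 median absolute deviations and was kept with 4 such arrays of 8 in AAPH or control RNA, which left 31325 of 43794 probes. The number of arrays limits the precision.

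Arrays of opposite orientation were paired by how their deviations from the mean of the orientation correlated (0.155 to 0.569, all above 0.1, and -0.343 to 0.0438 for the 12 other pairs). Swap pairs 1 to 4 were arrays 1 and 3, 2 and 4, 7 and 5, and 8 and 6, with 3 residual degrees of freedom. Ratios were tested against 0 with lmFit and eBayes, with Benjamini-Hochberg adjustment over all kept probes. Genes were represented by the brightest kept probe, and within a list the genes named were those of smallest p together with a set of well-known members. The members and lists were chosen with earlier results of these data known. The procedure was tested on simulated data. Alternatives were median centring, no background correction, other filters, the deposited table, variance settings, crossed or single arrays, slides, all probes of a gene, and leaving out each swap pair. No sequence or coordinate is given, since the sources used here do not give the probe design.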

Additional observations from a re-analysis of the deposited data

Results flagged for a closer look

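Among 76 named results, 5 had 1 swap pair far from the other 3 relative to their range, where chance gives 3.8. RNF20 was at 0.056 in swap pair 1 and between 0.42 and 0.45 in the others. TRIM4 was at -0.30 in pair 4 and between -0.16 and -0.14 in the others, on a probe close to background. TRIM13 was at -0.18 in pair 2 and between 0.07 and 0.11 otherwise. RNF130, a relative of RNF128, was at -0.42 in pair 3 and between 0.12 and 0.19 otherwise. CUL7, a cullin scaffold, was at 0.79 in pair 1 and between 0.19 and 0.23 otherwise. Each of the 4 pairs is the distant one at least once, and the cause was not tested.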

How the results depend on the processing

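No RNF or TRIM probe passed adjustment, and this changed under 3 settings whose cause was not tested. A filter for signal on all 8 arrays of a treatment, which tests 14358 probes, called 29 of all probes and 1 member, RNF128 (adjusted p = 0.0459). Crossing the swap pairs within slides called 1089 and 8, with RNF128 at 0.0141, and single arrays with the swap pair as a replicate block called 310 and 3 (RNF34, RNF219 and RNF128, the last at 0.00834). The ratio of RNF128 was 0.80 in all 3 and 0.46 as the mean of its probes. Leaving out 1 swap pair gave 0 calls and 0.74 to 0.88 for RNF128. The RNF median was 0.0456 without the filter, and leaving out pairs gave 0.02 to 0.04. The TRIM median was 0.0454 with median centring and 0.15 with the all-array filter, and leaving out pairs gave 0.0038 to 0.0373. The 14 RNF probes at unadjusted p under 0.05 (14.6%, all probes 13.7%) became 8 of 54 with the all-array filter (14.8%, all 15.4%), 7 with a variance trend (7.29%, all 8.18%), 5 on slide 26 alone (5.21%, all 9.06%) and 23 on slides 78 and 79 alone (24.0%, all 16.8%). Leaving out pairs gave 8 to 17, with 9, 8 and 8 without pairs 2, 3 and 4, where all probes had 9.96%, 9.30% and 9.81%. The 8 TRIM probes (17.4%) became 13 with crossed pairs (28.3%, all 22.1%) and 5 on slide 26 (10.9%, all 9.06%), and 5 to 11 without 1 pair, the 5 without pair 2. Of 43 named RNF and TRIM genes 29 kept their sign in every setting; 630 of 721 values stayed on their side of the unadjusted threshold, 63 fell short of it and 28 reached it. Of the 630, 29 had the other sign, all without a call. For 30 other named genes these were 460 of 502, 31, 11 and 3. The difference between slides was called for 0 of 31325 probes. Low signal limits the dimmer probes.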
